A study of Arabidopsis thaliana with 2 samples.

Results

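The 8 Arabidopsis thaliana loci described here encode the histone H3 variants H3.3 and H3.1. H3.3 is encoded by 3 loci (AT4G40030, AT4G40040 and AT5G10980) and H3.1 by 5 loci (AT5G65360, AT1G09200, AT3G27360, AT5G10390 and AT5G10400), with names as in the RefSeq annotation of TAIR10.1. Their reads were taken as all aligned long reads that overlapped an annotated exon of a member by at least 1 nt on the same strand. The 8 loci held 624.33 reads in replicate 1 and 422 reads in replicate 2, out of 267716 and 255215 aligned reads, and 20996 annotated nuclear genes had a read in at least 1 library.

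Histone H3 is a core subunit of the nucleosome, the unit around which nuclear DNA is wrapped. H3.1 is the replication-coupled form, which the chaperone CAF-1 deposits behind the replication fork, and H3.3 is deposited outside replication, for example by the HIRA complex, and is known for its enrichment over transcribed genes. In animals most replication-coupled histone mRNAs end in a stem-loop without a poly(A) tail, whereas plant H3 mRNAs are polyadenylated, so that a library primed on poly(A) can hold both kinds.

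The study sequenced full-length cDNA of wild-type Col-0 inflorescences with unopened floral buds on the PacBio platform. Both libraries came from 1 untreated condition, as 2 biological replicates, and therefore allow no comparison between conditions. Each full-length non-chimeric (FLNC) read gives the consensus sequence of 1 cDNA molecule with both primers and a poly(A) tail. A read whose 5′ end carried an upstream untemplated G (uuG), the trace that a cap leaves at template switching, is called a Cap Tag read, and a read whose 3′ end was kept as a poly(A) junction is called an End Tag read.

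Markers of floral tissue were present and those of other organs were absent. All 5 floral organ identity genes listed had reads, with sums of 797 and 780 reads per 1000000 aligned reads (RPM) in replicates 1 and 2, whereas the root gene PYK10 and the seed storage genes CRA1 and SESA3 had 0 reads in both libraries, which allows up to 11.2 and 11.8 RPM. The median aligned length of nuclear reads was 1139 nt in replicate 1 and 1258 nt in replicate 2. No read of either library lay over an exon of 2 members at the same time, and none lay on the antisense strand of a member.

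The coding sequences of the variants can be told apart. Each of the 8 loci has a coding sequence of 411 nt. The predicted proteins were identical among the 3 H3.3 loci and identical among the 5 H3.1 loci, and the H3.3 protein differed from the H3.1 protein at 4 of 135 positions, counted without the initiator methionine: 31, 41, 87 and 90. At the level of bases the loci were far less alike. Identity over the coding sequence was 78.6% to 88.8% for the 3 pairs of H3.3 loci, 80.3% to 89.5% for the 10 pairs of H3.1 loci and 74.0% to 80.3% for the 15 pairs between variants. The reads were thus assigned to a locus on many differing bases, and only 0.33 H3.3 reads and 2 H3.1 reads in all came from structures with a fractional count.

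Windows of 30 nt over codons 31, 87 and 90 of 1 locus per variant are printed to show where the messages of the variants part, with the codons of the differing residues in capitals (TAIR10.1, minus strand, 5′ to 3′).
H3.3 AT5G10980, codon 31, chr5:3472981-3473010: aaatcagcaccaACCaccggaggagtcaag
H3.1 AT1G09200, codon 31, chr1:2972022-2972051: aaatctgctccgGCCaccggaggagtgaag
H3.3 AT5G10980, codons 87 and 90, chr5:3472717-3472746: cagagtCACgcggtgTTAgctcttcaagag
H3.1 AT1G09200, codons 87 and 90, chr1:2971848-2971877: cagagcAGTgccgtcGCCgctcttcaggaa
Among the loci of 1 variant these codons varied only in synonymous form. The capital bases of the first window had 2 spellings among the 3 H3.3 loci and 2 among the 5 H3.1 loci, and those of the second window had 3 and 4.

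H3.3 messages were more abundant than H3.1 messages in both replicates. The 3 H3.3 loci had 389.33 and 259 reads in replicates 1 and 2, against 235 and 163 reads at the 5 H3.1 loci. The H3.3 to H3.1 ratio was 1.66 in replicate 1 (95% exact interval 1.40 to 1.95) and 1.59 in replicate 2 (1.30 to 1.95), with a mean of 1.62 ± 0.048 (SD, n = 2). The split into variants did not differ between replicates beyond counting error (odds ratio 1.04, two-sided Fisher's exact test, p = 0.795, adjusted p = 1 over 9 tests). These p-values, like the intervals, cover counting error within the libraries only. Each FLNC read stands for 1 cDNA molecule whatever its length, and when each locus was divided by its median aligned length the ratio was 1.38 ± 0.031. Among Cap Tag reads alone it was 1.41 ± 0.19. In bulk tissue, fewer cells of a type and less RNA per cell cannot be told apart.

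The sum over both variants differed more between replicates than their ratio did. H3.3 had 1454 RPM in replicate 1 and 1015 RPM in replicate 2, and H3.1 had 878 and 639 RPM, so that both were lower in replicate 2. The sums of the 3 gene lists below were lower in replicate 2 as well, but single genes did not all run the same way. The 8 loci of histone H4, the partner of H3 in the nucleosome, together had 979 RPM in replicate 1 and 723 RPM in replicate 2, with 6 loci lower in replicate 2 and 2 higher (AT1G07820, 85.9 and 127 RPM, and AT2G28740, 37.4 and 43.1 RPM). PCNA1 and PCNA2, which encode the sliding clamp of the replication fork, together had 146 and 62.7 RPM. The 11 listed chaperones and readers of H3 together had 356 and 290 RPM. Of these genes, 5 had lower values in replicate 2 and 6 higher, several of them on few reads. The higher ones included AT4G37210 with 19 and 23 reads, ATRX with 5 in each library and HIRA with 0 and 1. FAS1, a CAF-1 subunit, was also higher, with 3 and 6 reads (11.2 and 23.5 RPM). These counts of genes were not compared with the share over all genes. The part of library composition or read length in the difference between replicates was not tested.

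AT4G40040 was the most abundant member. It had 191.33 reads (715 RPM, 95% Poisson interval 616 to 822) in replicate 1 and 123 reads (482 RPM, 401 to 575) in replicate 2. AT4G40030 had 138 reads (515 RPM, 433 to 609) in replicate 1 and 77 reads (302 RPM, 238 to 377) in replicate 2. The intervals of the replicates did not overlap at either of these tandem H3.3 loci. How often this was so among all genes was not counted. AT5G10980, the H3.3 locus on another chromosome, had 60 and 59 reads (224 and 231 RPM), which differed by less than the counting error. Its share of H3.3 reads was 15.4% in replicate 1 and 22.8% in replicate 2.

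AT1G09200 held the largest share of H3.1 reads, 42.5% ± 1.9 (SD, n = 2), with 103 reads (385 RPM) in replicate 1 and 67 reads (263 RPM) in replicate 2. AT5G10400 followed with 60 and 44 reads (224 and 172 RPM) and AT3G27360 with 31.5 and 31 reads (118 and 121 RPM). AT5G65360 had 23.5 and 12 reads (87.8 and 47.0 RPM). AT5G10390 was the least abundant member, with 17 and 9 reads (63.5 and 35.3 RPM). At all 5 H3.1 loci the Poisson intervals of the replicates overlapped. These loci had fewer reads than the tandem H3.3 loci, and Poisson intervals are relatively wider on fewer reads. No contrast between the variants is therefore drawn from the overlap.

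**Figure D1:**
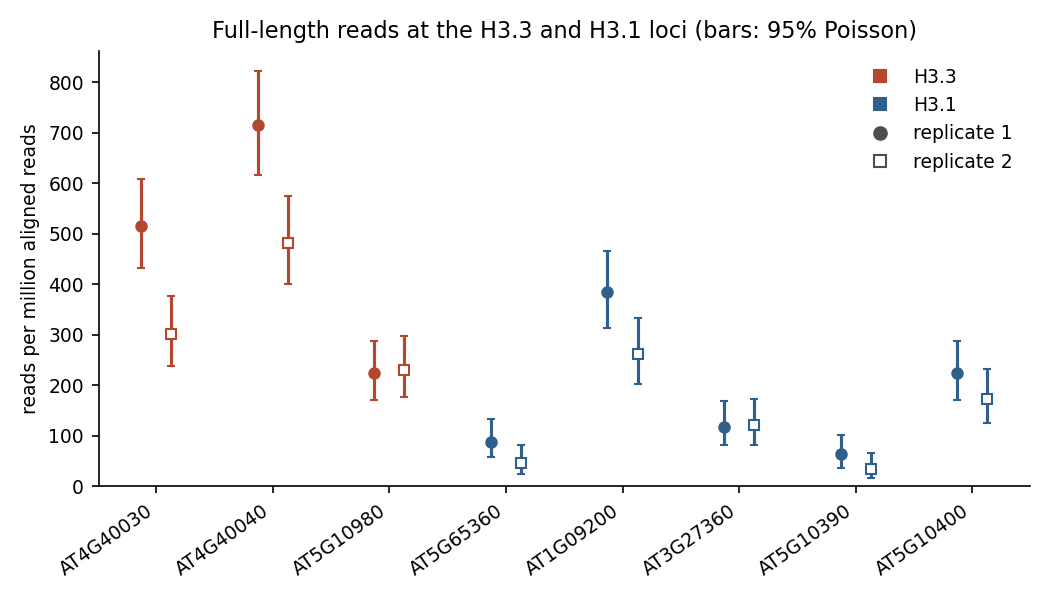
RPM (vertical axis) at each locus (horizontal axis), with H3.3 loci in red on the left and H3.1 loci in blue on the right. Filled circles are replicate 1, open squares replicate 2 and bars 95% Poisson intervals. AT4G40040 is highest in both replicates, at 715 and 482 RPM, and AT5G10390 lowest, at 63.5 and 35.3 RPM.

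Per kb of median aligned length, the order of the mean levels was AT4G40040 (785), AT4G40030 (581), AT1G09200 (566), AT5G10980 (345), AT5G10400 (307), AT3G27360 (183), AT5G65360 (107) and AT5G10390 (70.3 RPM per kb). The order by reads was the same. On the per kb scale the 2 replicate values of AT4G40040 overlapped in range with those of AT4G40030, those of AT4G40030 with AT1G09200, those of AT5G10980 with AT5G10400 and those of AT5G65360 with AT5G10390. The other 3 steps in the order were larger than the spread between replicates. When each read was given to the gene of its largest overlap, AT4G40040 ranked 162 and AT5G10390 ranked 4144 by reads among the 20996 genes.

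The other H3 loci gave few reads. The 6 further H3 loci of the annotation had 8 reads in each library (29.9 and 31.3 RPM) when each read was given to the gene of its largest overlap. They included 5 and 3 reads of AT1G01370, the centromeric H3, and 2 and 4 reads of MGH3 (AT1G19890), the H3 of the male gamete. AT1G75600 and AT5G12910 had 0 reads in both libraries. All 11 chaperones and readers of H3 that were listed had at least 1 read. They included MSI1, a subunit of CAF-1, with 28 and 14 reads, and HIRA with 0 and 1.

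All reads were selected for a poly(A) tail, so the End Tag share gives only how often the 3′ label passed the filter on A-rich sites, not how often a message was polyadenylated. The End Tag was kept by 98.7% and 99.2% of H3.3 reads in replicates 1 and 2, and by 98.7% and 100% of H3.1 reads. The shares were not separated in either replicate (Fisher's exact test, p = 1 and p = 0.525, adjusted p = 1 and 0.945). Over all reads assigned to nuclear genes the share was 90.3% and 90.1%, and at the H4 loci 90.5% and 90.2%. The lowest value at a member was 96.8%, for AT3G27360 in replicate 1, with 31.5 reads behind it.

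The Cap Tag was found on 57.3% and 55.6% of H3.3 reads in replicates 1 and 2, against 61.3% and 69.3% of H3.1 reads. H3.3 minus H3.1 was -4.00 percentage points in replicate 1 (Fisher's exact test, p = 0.356, adjusted p = 0.802) and -13.7 points in replicate 2 (Fisher's exact test, p = 0.00564, adjusted p = 0.0507). Neither passed after adjustment. The shares over all nuclear genes were 57.6% and 59.1%, and at the H4 loci 60.7% in both replicates. The mean difference was -8.86 ± 6.88 percentage points (SD, n = 2). Without AT1G09200 it was 4.25 points in replicate 1 and -7.94 points in replicate 2 (mean -1.85 ± 8.62), and without AT4G40040 it was 2.36 and -10.5 points (mean -4.07 ± 9.09). The replicates thus had opposite signs when either locus was left out. These 2 leave-outs were not planned, and no other locus was left out in this way. AT1G09200 had the highest share of the H3.1 loci and AT4G40040 the lowest of the H3.3 loci. Leaving either out could therefore only move the difference upward, and no conclusion is drawn from it.

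Single loci spread more widely than the variants. AT1G09200 had the highest Cap Tag share, with 71.8% (95% Wilson interval 62.5 to 79.6) and 77.6% (66.3 to 85.9) in replicates 1 and 2. AT4G40030 had 65.9% and 63.6%, and AT4G40040 had 50.7% (43.8 to 57.8) and 52.0% (43.3 to 60.7). AT5G10980 had 58.3% and 52.5%. The lowest shares were those of AT5G65360, 38.3% and 41.7%, on 23.5 and 12 reads, with Wilson intervals from 21.2 to 57.3 and from 19.3 to 68.0. These shares are given as a description, and no pair of single loci was tested.

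**Figure D2:**
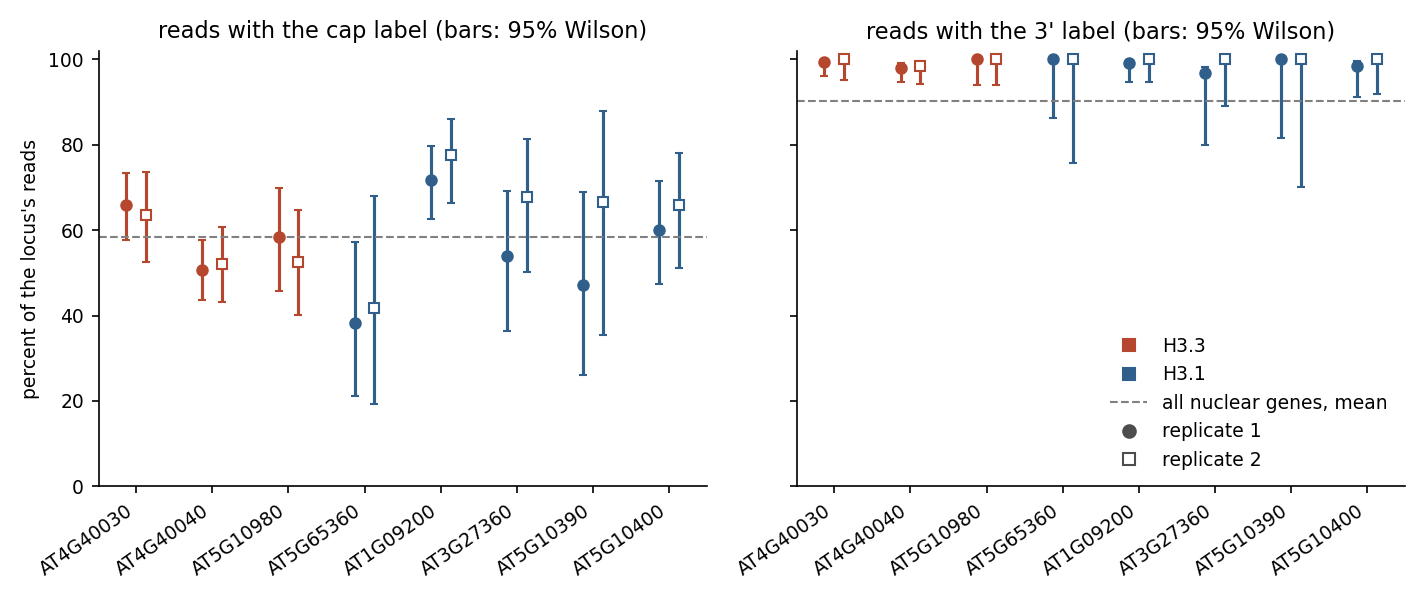
Percent of the reads of each locus (vertical axes) with the Cap Tag on the left and the End Tag on the right, H3.3 loci in red before H3.1 loci in blue, replicate 1 as filled circles, replicate 2 as open squares, bars as 95% Wilson intervals. Cap Tag shares range from 38.3% to 77.6%, while all End Tag shares are 96.8% or higher, over the 90.2% mean of all nuclear genes (dashed).

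Most reads of both variants spanned the coding sequence from start to stop codon. These were 88.7% and 88.4% of H3.3 reads in replicates 1 and 2 and 88.3% and 92.6% of H3.1 reads (Fisher's exact test, p = 0.897 and 0.183, adjusted p = 1 and 0.550). Reads that had a Cap Tag, an End Tag and the whole coding sequence numbered 363 for H3.3 and 256 for H3.1 over both libraries. By locus they ranged from 14 reads each at AT5G65360 and AT5G10390 to 158 at AT4G40040.

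Introns were removed from H3.3 reads and nearly absent from H3.1 reads, as both are annotated. Of 648.33 H3.3 reads, 585.33 had at least 1 intron removed, whereas 397 of 398 H3.1 reads had none. The H3.3 reads without an intron were nearly all short. Of these 63 reads, 62 began downstream of the start codon, and the other, a Cap Tag read of AT4G40030 in replicate 2, kept every intron. Among H3.1 reads without an intron, 357.5 of 397 spanned the whole coding sequence. Since the H3.1 loci are annotated without introns, this contrast was not tested.

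The 3 H3.3 loci shared intron positions in the coding sequence, and AT4G40040 had all of them. An intron after coding nt 72 was present at all 3 loci, one after nt 149 at AT4G40030 and AT4G40040, and one after nt 240 at AT4G40040 and AT5G10980. The intron after nt 72 was 82 nt long in AT4G40030, 87 nt in AT4G40040 and 258 nt in AT5G10980. All of these introns began with GT and ended with AG. Of the reads over each coding intron, 98.5% to 100% (mean of both replicates) were spliced at the annotated junction.

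Exceptions were few. Unspliced coding introns were seen in 1 read at each of 6 of the 7 coding introns and in 0 of 110 reads at the second intron of AT5G10980. These were not separate reads for each intron. In AT4G40030 it was the read that kept every intron, and in AT4G40040 it was 1 read of replicate 2 that kept every coding intron. At the third coding intron of AT4G40040, 2 reads, 1 per replicate, used a junction shifted by 2 nt at 1 side and 3 nt at the other. The most common full set of introns accounted for 186 of 215 reads of AT4G40030, 266.33 of 314.33 reads of AT4G40040 and 105 of 119 reads of AT5G10980.

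AT4G40030 and AT4G40040 each had a further intron in the 5′ leader, the stretch between cap and start codon, and AT5G10980 had none. The leader intron was 463 nt long in AT4G40030 (chr4:18556418-18556880) and 409 nt in AT4G40040 (chr4:18558237-18558645). Both acceptors lay directly before the start codon, with 0 bases between the last intron base and the A of the ATG, so that the whole leader was encoded in a separate first exon. The windows below show 10 nt of exon and 20 nt of intron at each donor with its GT in capitals, and 20 nt of intron and 10 nt of exon at each acceptor, with the AG and the start codon in capitals (TAIR10.1, minus strand).
AT4G40030 donor, chr4:18556861-18556890: cgaagaacagGTatgatttgtttgtaatta
AT4G40040 donor, chr4:18558626-18558655: gttttctgagGTacgattcttcgatcctct
AT4G40030 acceptor, chr4:18556408-18556437: atttcttgttaaatgcgcAGATGgctcgta
AT4G40040 acceptor, chr4:18558227-18558256: cttgttaatttgttgaacAGATGgctcgta
Exonic bases were the same in both acceptor windows, while the donors and the intronic bases differed.

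Leader splicing was near complete at both loci. The first shares below are of all reads that began upstream of the start codon, also those that began within the intron. In AT4G40030, 120 of 125 reads from upstream of the start codon in replicate 1 and 68 of 70 in replicate 2 lacked this intron, which is 96.0% (95% Wilson interval 91.0 to 98.3) and 97.1% (90.2 to 99.2). In AT4G40040 it was removed in 160.33 of 165.33 reads (97.0%, 93.1 to 98.7) in replicate 1 and in 109 of 109 reads (100%, 96.6 to 100) in replicate 2. The loci did not differ beyond counting error in either replicate (Fisher's exact test, p = 0.750 and 0.152, adjusted p = 1 and 0.550). The remaining reads shared the acceptor but used other donors (2 reads in AT4G40030 and 3 in AT4G40040) or had no leader intron in the read (5 and 2 reads). Some of them began within the main intron and could not use its donor. Of reads that spanned this intron, 98.4% and 98.6% were spliced at it in AT4G40030 and 97.6% and 100% in AT4G40040, in replicates 1 and 2. Over both libraries, spanning reads with another junction numbered 0 in AT4G40030 and 2 in AT4G40040, and unspliced ones 3 and 0. A further 2 spanning reads of AT4G40040 in replicate 1 had a gap there without donor and acceptor labels. No H3.1 read and no AT5G10980 read from upstream of the start codon had a leader intron, at 358.5 and 104 reads.

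**Figure D3:**
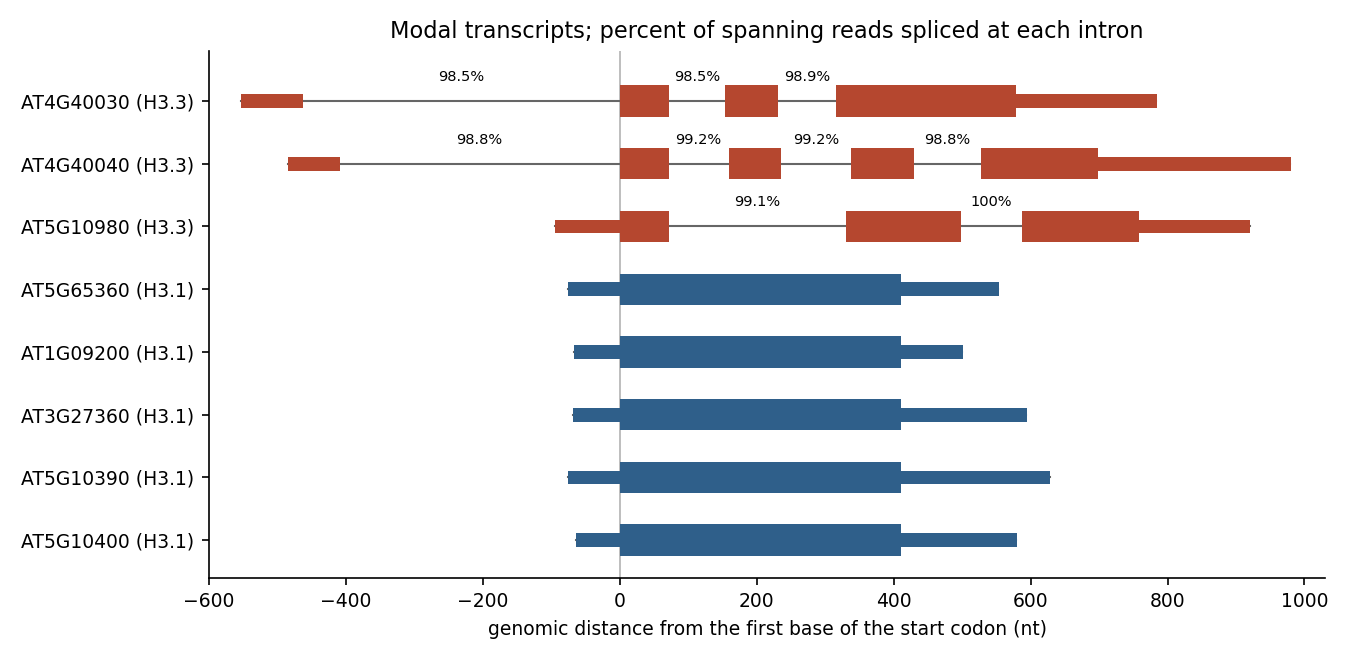
Most used transcript of each locus, drawn from the modal capped start to the modal 3′ end, by genomic distance from the start codon in nt (horizontal axis). Thick boxes are coding, thin boxes untranslated, lines introns, red H3.3 loci above blue H3.1 loci, and each percentage is the mean share of spanning reads spliced at that junction, from 98.5% to 100%.

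The spliced leaders were short at all 8 loci. The median length from capped 5′ end to start codon was 90 nt in AT4G40030, 73 nt in AT4G40040 and 94 nt in AT5G10980, against 64 nt to 75 nt at the 5 H3.1 loci. The replicate medians were within 1 nt of each other at every locus. On the genome the leader introns placed the median start 553 nt upstream of the start codon in AT4G40030 and 482 nt upstream in AT4G40040. The ranges of the variants overlapped, since the median of AT4G40040 fell between those of AT1G09200 (67 nt) and of AT5G65360 and AT5G10390 (75 nt each).

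Capped starts were sharp at some loci and spread at others. In AT1G09200, 73 of 74 Cap Tag reads in replicate 1 and 51 of 52 in replicate 2 began at the same base, 67 nt upstream of the start codon. The modal base held 62.1% of 66 Cap Tag reads in AT5G10980, 72.3% of 65 in AT5G10400 and 42.1% of 38 in AT3G27360. It held 36.4% of 140 in AT4G40030 and 23.0% of 161 in AT4G40040, the lowest shares of the 8 loci. AT5G65360 and AT5G10390 had 14 Cap Tag reads each, with 10 and 12 of them at the mode. The modal base was the same in both replicates at all 8 loci.

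Within AT4G40040 several starts were used side by side. The start 484 nt upstream had 21 and 16 reads in replicates 1 and 2, that at 477 nt 16 and 13, that at 474 nt 13 and 7, and that at 507 nt 7 and 6. In AT4G40030 the start 553 nt upstream had 35 and 16 reads and that at 555 nt had 21 and 15. Among 2989 genes with at least 20 Cap Tag reads the median share at the modal base was 39.4%, with quartiles of 27.3% and 56.8%. AT1G09200 lay at percentile 99.9 of these genes, AT5G10400 at 88.8, AT5G10980 at 80.7 and AT3G27360 at 55.0. AT4G40030 lay at percentile 43.9, near the median, and AT4G40040 at percentile 16.1.

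**Figure D4:**
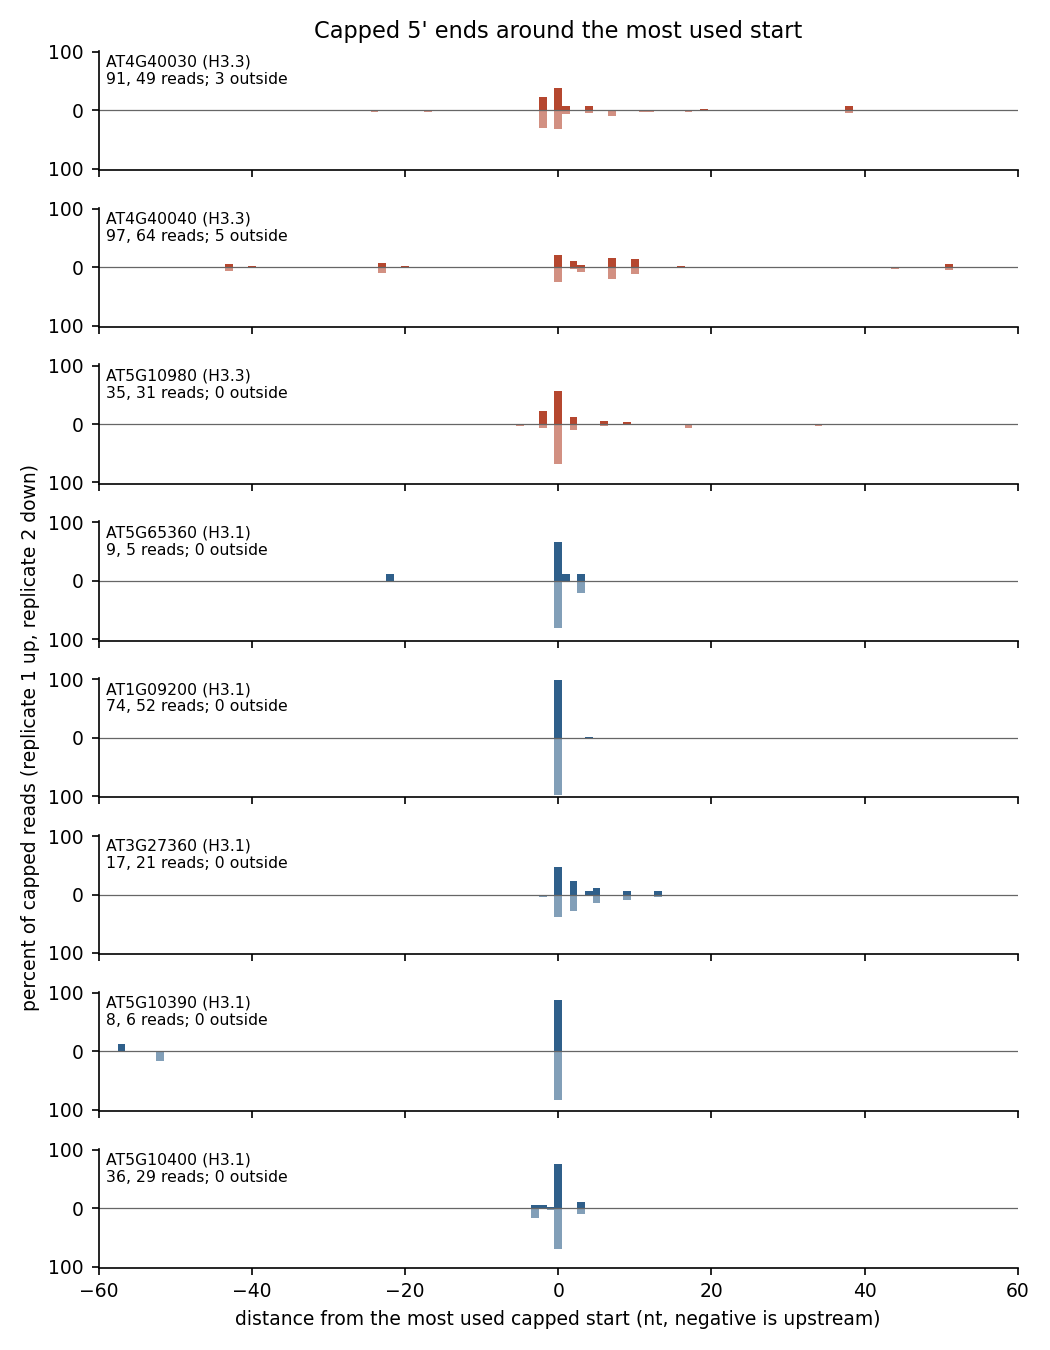
Percent of Cap Tag reads (vertical axes, replicate 1 up and replicate 2 down) by distance in nt from the most used start (horizontal axis), H3.3 loci in red above H3.1 loci in blue. Nearly all AT1G09200 reads stand at a single base in both replicates, while AT4G40040 reads spread over 23 positions, with 5 reads outside the plotted range.

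The modal starts differed from the annotation at several loci. They coincided with an annotated 5′ end in AT3G27360 and AT5G10390, lay 3 nt upstream of it in AT5G65360 and 5 nt downstream in AT5G10400. In AT5G10980 and AT1G09200 the modal start was 127 nt and 135 nt downstream of the only annotated 5′ end, and 0% of Cap Tag reads of either locus fell within 50 nt of it. In AT4G40040 it was 23 nt downstream of the nearest annotated 5′ end and in AT4G40030 66 nt upstream. Reads with a 5′ label but no uuG used the same starts in part, with 44.1% (AT4G40040) to 76.7% (AT1G09200) of them within 5 nt of the mode. The genomic base before the mode was C or T at all 8 loci, so a G there was not templated.

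TATA motifs stood within a narrow range of distances from most modal starts. TATAAA or TATATA on the RNA strand began 31 nt to 34 nt upstream of the mode at 6 of the 8 loci, namely at all 3 H3.3 loci and at 3 of the 5 H3.1 loci. Of 10420 protein-coding genes with at least 5 Cap Tag reads, 23.0% had such a match beginning 45 nt to 20 nt upstream, and 25.8% had one on either strand. AT1G09200 and AT5G10390 had no match to these letters in that window. The motif was printed for the 3 H3.3 loci with 12 nt at each side (motif in capitals, TAIR10.1, minus strand).
AT4G40030, chr4:18556985-18557014: tttcgtgagtatTATAAAtaataattcaac
AT4G40040, chr4:18558734-18558763: accatcgttgccTATAAAttaatatcaata
AT5G10980, chr5:3473459-3473488: aaaacattcaccTATATAatcataatcacc

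For 4 H3.1 loci whose modal start lay within 5 nt of the annotated one, the 50 nt before the start are shown with any TATA motif and the start base in capitals, and for AT1G09200, the locus with the sharpest start, the 20 nt before and 9 nt after it.
AT5G65360, chr5:26120584-26120634: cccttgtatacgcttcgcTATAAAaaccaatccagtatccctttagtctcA
AT3G27360, chr3:10129937-10129987: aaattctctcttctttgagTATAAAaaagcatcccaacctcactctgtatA
AT5G10390, chr5:3269550-3269600: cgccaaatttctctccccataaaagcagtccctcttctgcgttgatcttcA
AT5G10400, chr5:3270952-3271002: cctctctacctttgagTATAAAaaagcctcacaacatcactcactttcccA
AT1G09200, chr1:2972190-2972219: ttcctcaatcgaaacaaactAtccagatct
AT3G27360 and AT5G10400 shared a run of 18 nt around the TATA motif, and the next longest run among the 28 pairs of 51-nt windows was 8 nt. At 7 of the 8 loci the modal start base was A, and in AT4G40040 it was G.

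The histone octamer motif CGCGGATC, a sequence long known from plant histone promoters, was searched on both strands over the 250 nt upstream of the modal start. It was present at 1 of 3 H3.3 loci and 3 of 5 H3.1 loci, against 21 of all 10420 genes (0.202%), of which 2 were H4 loci and 15 neither. AT1G09200 had 2 copies, beginning 225 nt and 154 nt upstream. AT5G65360 had a copy 123 nt upstream and AT5G10400 a copy 125 nt upstream, all on the RNA strand, and AT4G40040 had a copy on the opposite strand 242 nt upstream. The other 4 loci had no match to these letters in this window. Each copy is shown with 4 nt at each side, with the motif in capitals (for AT4G40040 its reverse complement).
AT4G40040, chr4:18558951-18558966: cagcGATCCGCGacgg
AT5G65360, chr5:26120696-26120711: gtgaCGCGGATCacta
AT1G09200, chr1:2972413-2972428: ttcaCGCGGATCagtg
AT1G09200, chr1:2972342-2972357: ttcaCGCGGATCgtga
AT5G10400, chr5:3271066-3271081: aggaCGCGGATCgtaa

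The 3′ untranslated regions of H3.3 and H3.1 reads overlapped in length. The median distance from stop codon to End Tag was 206 nt in AT4G40030, 282 nt in AT4G40040 and 161 nt in AT5G10980, against 94 nt in AT1G09200, 144 nt in AT5G65360, 171 nt in AT5G10400, 177 nt in AT3G27360 and 218 nt in AT5G10390. AT4G40040 had the longest and AT1G09200 the shortest. The medians of both replicates were within 7 nt of each other at every locus except AT5G65360, where they were 163 nt in replicate 1 and 143 nt in replicate 2.

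Polyadenylation was spread over neighbouring bases at every locus. AT4G40040 reads ended at 59 positions and AT4G40030 reads at 53, and no single position held more than 42.3% of a locus's End Tag reads (AT5G10390, 11 of 26 reads). When ends within 10 nt were merged, the most used site held 84.6% of End Tag reads in AT4G40030, 80.5% in AT4G40040 and 90.8% in AT5G10980, against 92.3% in AT1G09200, 91.3% in AT5G10400, 77.2% in AT3G27360, 61.5% in AT5G10390 and 59.2% in AT5G65360. Merging ran from each end position to the next, so the most used sites differed in width. They ran from 139 nt to 243 nt past the stop codon in AT4G40030 and from 238 nt to 298 nt in AT4G40040. In AT5G10390 the most used site ran only from 216 nt to 224 nt. These shares are therefore not shares of sites of equal width. They also pool both libraries. In replicates 1 and 2 the share was 46.8% and 83.3% in AT5G65360, on 23.5 and 12 End Tag reads. In AT5G10390 it was 70.6% and 44.4%, on 17 and 9. Merged within 25 nt, the most used site held 99.2% of H3.3 and 91.6% of H3.1 ends. The farther sites given below for AT4G40030, AT4G40040, AT1G09200 and AT5G65360 were then part of the most used site. Merged within 10 nt, sites farther from the stop codon than the most used one were read in both replicates at loci of both variants. In AT4G40030 such a site lay 260 nt to 265 nt past the stop codon (21 and 9 reads) and in AT4G40040 329 nt to 360 nt past it (29 and 26 reads). Among H3.1 loci such sites lay at 129 nt to 143 nt in AT1G09200 (7 and 5 reads), 163 nt to 174 nt in AT5G65360 (5 and 2), 280 nt to 294 nt in AT3G27360 (4 and 1), 305 nt to 319 nt in AT3G27360 (2 and 2), 278 nt to 279 nt in AT5G10390 (1 and 3) and 263 nt to 265 nt in AT5G10400 (3 and 1).

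The hexamer AATAAA on the RNA strand, the canonical poly(A) signal of animals, did not begin 40 nt to 10 nt before the modal 3′ end at any of the 8 loci. It did so at 11.6% of 12796 protein-coding genes with at least 5 End Tag reads. The modal ends of the most abundant locus of each variant are shown with 20 nt before and 9 nt after the last aligned base, in capitals (TAIR10.1, minus strand).
AT4G40040, chr4:18557248-18557277: aatatgttaaagtttctgacTcttgtttca
AT1G09200, chr1:2971623-2971652: aagggttataatattaattcCaagcaatta

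**Figure D5:**
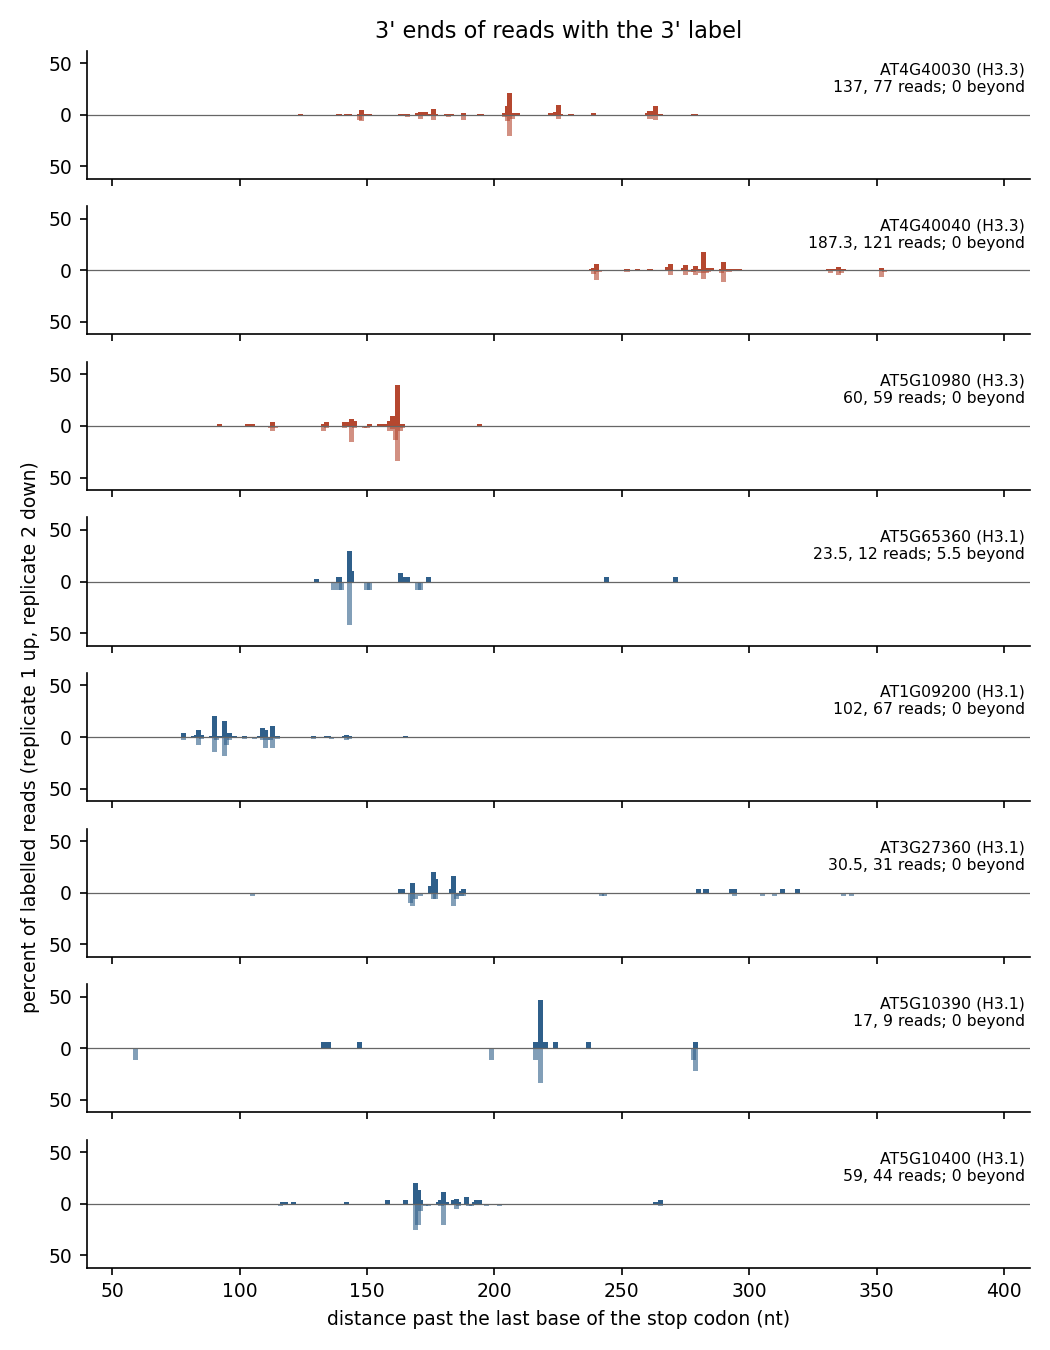
Percent of End Tag reads (vertical axes, replicate 1 up and replicate 2 down) by distance in nt past the stop codon (horizontal axis, to 410 nt), H3.3 loci in red above H3.1 loci in blue. AT4G40040 reads end farthest out, around 282 nt, AT1G09200 reads nearest, around 94 nt, and 5.5 AT5G65360 reads of replicate 1 end beyond the axis.

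Neighbouring H3 genes were read as separate transcripts. AT4G40040 lies directly upstream of AT4G40030 on the same strand with 42 nt between the annotated genes, and 287 nt separated its modal 3′ end from the modal capped start of AT4G40030. Of 529.33 reads of these tandem H3.3 loci, 0 reached from one into the other. AT5G10400 and AT5G10390, an H3.1 pair with 577 nt between the annotated genes, likewise shared 0 of 130 reads.

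AT5G65360 was different. In replicate 1, 5.5 of its 23.5 reads (23.4%, 95% Wilson interval 12 to 44.9) continued over AT5G65350, another H3 gene whose annotated 5′ end is 33 nt downstream, and 0 of 12 reads did so in replicate 2 (0 to 24.2). Of these reads, 5 began within 5 nt of the modal start of AT5G65360 and 5 ended within 15 nt of the annotated 3′ end of AT5G65350, mostly 887 nt to 889 nt past the AT5G65360 stop codon (4 reads). The reads included 2 with a Cap Tag and the only H3.1 read with an intron, which joined the 3′ untranslated region of AT5G65360 to AT5G65350. All of them stood in 1 library, so this long form had no replicate.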

How the data were processed

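Total RNA of Col-0 inflorescences with unopened floral buds gave 2 PacBio libraries, which the labels call biological replicates. The authors made FLNC reads with a required poly(A) tail, aligned them to TAIR10 with minimap2 under guidance of annotated junctions, and processed them with Bookend, which removed 3′ labels at A-rich sites. The deposited files list aligned structures with end labels and an expected count of reads, split between alignments and not normalized. Requiring a poly(A) tail leaves RNA without one unseen, and guidance can favour annotated junctions.

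Reads were compared with RefSeq exons of TAIR10.1. No structure ran past a chromosome end, and 98.7% of nuclear introns were GT-AG. RPM were taken over all aligned reads. A junction was counted only with donor and acceptor labels. Fisher's exact tests (two-sided, summed expected counts rounded) were adjusted by Benjamini-Hochberg over 9 tests, and intervals are 95% Wilson or exact Poisson. Python 3.11.15, NumPy 2.4.6, SciPy 1.17.1 and Biopython 1.88 were used. Simulated reads tested the assignment by largest overlap, the end labels, the span of the coding sequence and the number of introns. The other measures were not tested in this way. All 8 members are named by rule. Members and lists were chosen with earlier results of these data known. Alternatives covered read assignment, end labels, distances, length scaling and leaving out each replicate.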

Additional observations from a re-analysis of the deposited data

How the results depend on the processing

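Of 58 alternative values of the main results, 47 stayed on the same side or within the spread between replicates. This count includes the values with a replicate left out. With 2 replicates, leaving 1 out moves a mean by less than their SD, so those values say little about stability. The H3.3 to H3.1 ratio stayed above 1 under all 9 alternatives, with its lowest values among Cap Tag reads (1.41) and per kb of median aligned length (1.38, chosen after seeing the data), and 1.59 to 1.66 when a replicate was left out. Coding introns were spliced as annotated in 99.1% of spanning H3.3 reads and in 99.3% with the Cap Tag and the End Tag. Capped ends within 20 nt and 100 nt of an annotated 5′ end made up 9.10% and 80.8% of H3.3 ends, against 44.1% within 50 nt. The most used 3′ site held 57.7% of H3.3 and 79.4% of H3.1 ends when merged within 5 nt and 99.2% and 91.6% within 25 nt, against 83.7% and 85.0% within 10 nt. H3.3 minus H3.1 was -13.7 to -4.00 percentage points for the Cap Tag share when a replicate was left out, with an unadjusted p of 0.00564 without replicate 1 (Fisher's exact test). For reads over the whole coding sequence it was -4.22 to 0.401 points, and changed sign without replicate 2. The causes were not tested. No paired analysis was possible because both libraries belong to 1 group. Depth limits AT5G65360 and AT5G10390 most, with 9 to 23.5 reads per library.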
